A study of Caenorhabditis elegans with 95 samples.

Results

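The comparison set the light phase of a day against its dark phase in adult Caenorhabditis elegans kept under light/dark (LD) cycles. It rests on 18 arrays of the 95 in the whole series, chosen by their labelled condition and hour: 9 LD light arrays, taken 2, 6 and 10 h after lights on, and 9 LD dark arrays, taken at 14, 18 and 22 h. Each hour was sampled once in each of 3 independent time series, numbered 3, 4 and 6. By their labels, the arrays at hours 6 and 18 of series 4 each stand for 2 biological replicates, and whether RNA was pooled or arrays were averaged is not given in the sources used here. All animals were wild type of the Bristol N2 strain, grown as synchronized populations on Escherichia coli and collected as whole adults; their total RNA was measured on C. elegans Genome Arrays from Affymetrix. Both phases shared a constant 18 °C, 5 days of entrainment in 12 h of cold white light at about 500 to 1000 lux and 12 h of darkness, and 25 µM 5-fluoro-2-deoxyuridine (FUDR) from the last larval stage, which blocks DNA synthesis and kills embryos. The light and dark samples of a series may come from different animals, since the methods describe populations held under opposing cycles in separate incubators and the labels do not say which population gave which sample.

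Other arrays were used only as references for the same hours of the day: 11 from non-entrained control animals held in complete darkness (series 4 and 6), 18 from the day of constant darkness (DD) that followed LD entrainment (series 2, 4 and 6), and 30 from animals in darkness cycled between 25 °C warm and 15 °C cold phases (WC, 5 series). C. elegans has no eyes and no opsin-based vision. It senses short-wavelength light through receptors of the gustatory receptor family, LITE-1 and GUR-3, and through cyclic GMP signalling with the TAX-2 and TAX-4 channel subunits in some neurons, and it moves away from such light. Relatives of the insect clock genes exist in its genome, among them lin-42, which is related to period and is best known for timing larval development.

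The deposited values were scores, not expression levels. A score gives how far a probe set lay above or below its mean over its own time series, on a log2 scale that was then rescaled on each array to a mean of 0 and a variance of 1. A difference of 1 is therefore 1 standard deviation (SD) of all probe sets on an array and is not a fold change, levels of different genes cannot be compared, and the tissue named in the labels cannot be checked through the level of its markers. Arrays of the 2 phases correlated negatively in series 3 (median r = -0.53 across probe sets) and positively in series 4 and 6 (0.43 and 0.26), against 0.35, 0.49 and 0.61 within a phase. Series 3 was centred over its LD arrays alone, which by itself lowers the correlation between phases, and series 4 and 6 over LD and DD together, so these values cannot be compared between series. The dark array at hour 14 of series 4 stood apart: it correlated at 0.52 to 0.66 with the light arrays of its series and at 0.41 to 0.42 with the other dark arrays. No 2 arrays were duplicates (highest r = 0.70).

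Of 15989 probe sets that varied beyond the array floor, 1414 were higher in light and 1119 were lower in light at an adjusted p under 0.05 (limma, light minus dark with series as a block, Benjamini-Hochberg adjustment). These calls made up 8.84% and 7% of the probe sets tested, 15.8% in all. Counted once per gene, 1072 genes were higher (8.87%) and 878 lower (7.26%) of 12088. The calls depended on treating arrays of a phase as independent and on 2 of the series. With series-by-phase populations as a random block, or with 1 mean per phase and series, no probe set passed; without series 3 the counts were 7 higher and 0 lower, and without series 6 they were 0 and 2. All results below carry this limit. Per series, the median absolute difference was 0.73 in series 3, 0.29 in series 4 and 0.39 in series 6. On these scores series 3 gave the largest of the 3 differences for 1817 of the 2533 called probe sets. Sizes are not on the same scale in each series, because only series 3 was centred over LD alone. With each series re-centred over its LD arrays and re-standardized, the medians were 0.73, 0.42 and 0.55. Differences given by series below are on the deposited scores and carry this limit. Differences correlated between series at r = 0.32 (3 and 4), 0.29 (3 and 6) and 0.33 (4 and 6) across probe sets, which are not independent replicates.

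The controls, DD and WC were each fitted jointly with the LD arrays, so their tests used a spread shared with LD. Their counts of calls are therefore not on the same footing as those of the LD fit above. In the non-entrained controls, the same subtraction (hours 2 to 10 minus hours 14 to 22) called 1 of 17095 probe sets (0.00585%). At an unadjusted p under 0.05 the number was 1043, or 6.1%. Across probe sets, which are not independent, the LD differences had r = 0.01 with those of the controls, 0.41 with those of DD and 0.11 with those of WC. The difference between the LD and the control difference itself was called for 0 probe sets in limma, with 2644 at an unadjusted p under 0.05; without LD series 4 it was called for 300. So no single gene below was shown to differ between LD and the controls, and control values are given beside the LD values. In its joint fit the DD difference was called for 36 of 16733 probe sets (0.215%), with 2794, or 16.7%, at an unadjusted p under 0.05. The WC difference was called for 825 of 17506 (4.71%) in its own joint fit with LD. The LD difference was told apart from the DD difference for 1 probe set (0.00598%), or 303 without LD series 4. It was told apart from the WC difference for 746 of 17506 (4.26%; 37 to 1144 when 1 LD series was left out), more positive in LD for 593 (3.39%) and more negative for 153 (0.874%).

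**Figure D1:**
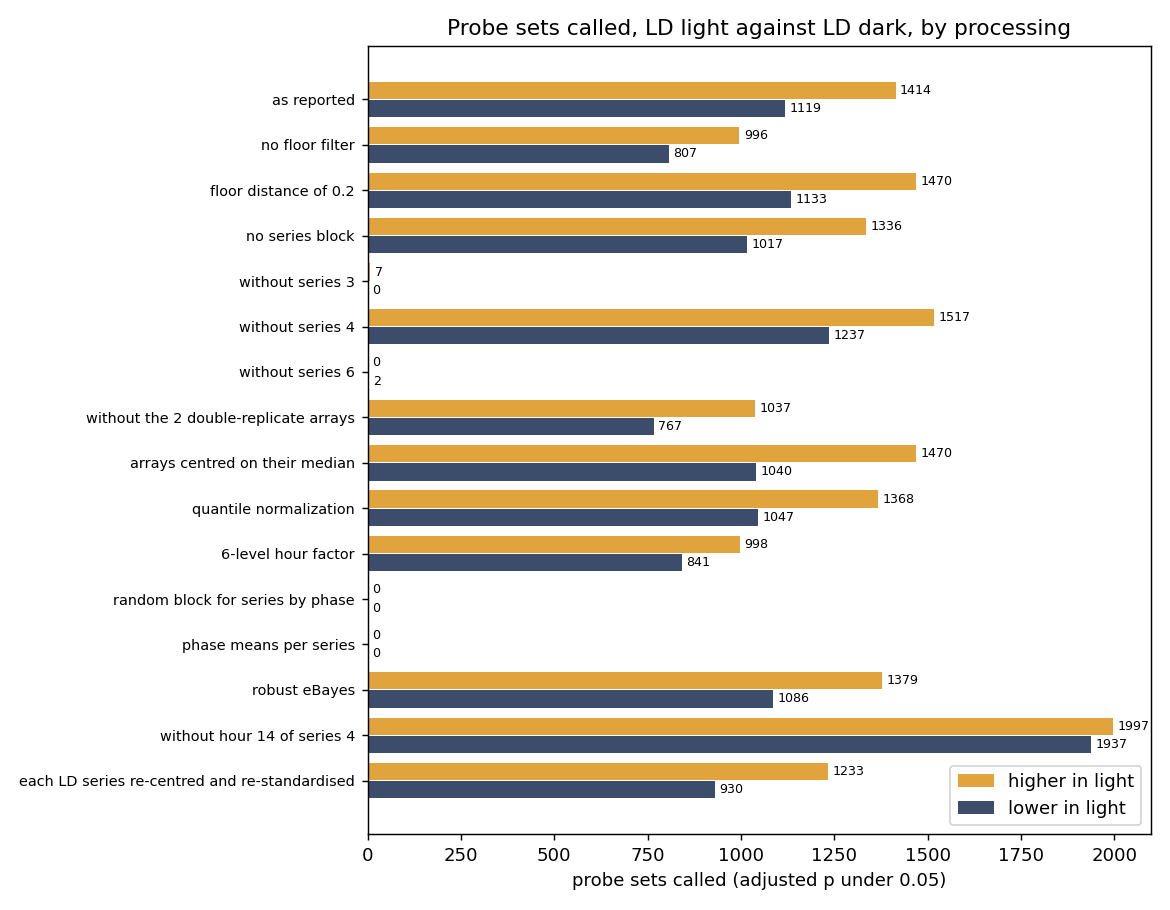
Number of probe sets (horizontal axis) called higher in light (upper bar of each pair) and lower in light (lower bar) under the reported setting and 15 alternatives (rows). The calls numbered 1414 and 1119 as reported and fell to 0 and 0 with the random block or with phase means, and to 7 and 0 without series 3.

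Muscle genes were the most often higher in light of the 38 gene lists. Of 49 measured genes of muscle structure, 27 were higher and 0 lower in light, against 8.87% and 7.26% of all genes, and their median difference was 1.06, against -0.06 over all genes. On the deposited scores, whose scale differed between series, the list had medians of 1.07, 0.92 and 0.93 in series 3, 4 and 6. Of the 49 genes, 35 were higher in light in all 3 series, as were 18.7% of all genes. The list's median score per array was lowest at 0.00, in the middle at 0.56 and highest at 0.96 over the light arrays, and -0.98, -0.20 and 0.14 over the dark arrays, so the phases overlapped narrowly. Whole animals were used, and more muscle per animal and more muscle RNA per cell cannot be told apart. Without hour 14 of series 4 the count was 28 of 49, and with the random block it was 0.

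pat-9, a zinc finger gene needed for body wall muscle, had scores of 0.49, 1.77 and 3.37 (lowest, median and highest) on the light arrays and -3.67, -1.23 and 0.12 on the dark arrays. Every light array lay above every dark array, a separation seen for 34 of 15989 probe sets (0.213%). The difference was 3.13 ± 0.45 (SE here and below; adjusted p = 0.00801), and a second probe set for the gene did not pass. cpn-3, a calponin-related gene, also did not overlap, with light scores between 0.76 and 1.34 and dark scores between -1.30 and 0.74 (1.24 ± 0.19, adjusted p = 0.00805). unc-15, which encodes the thick filament protein paramyosin, had a light median of 1.39 and a dark median of -0.38. Its difference was 1.63 ± 0.27 (adjusted p = 0.00805), with overlap at hour 14 of series 4 and 6, and all 3 of its probe sets passed. unc-87, an actin-binding thin filament gene, had 1.37 ± 0.23 (adjusted p = 0.00835).

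Other muscle markers were looked at after their values were known. The major body wall myosins unc-54 and myo-3 were both higher in light, by 1.68 ± 0.30 and 1.91 ± 0.54. The pharyngeal myosin myo-1 had -0.12 ± 0.37, and the giant muscle proteins unc-22 and ttn-1 had 0.84 ± 0.46 and -0.56 ± 0.91; none of these 3 passed. alp-1, a gene of the ALP/Enigma family found at muscle attachment sites, had 0.02 to 1.82 on light arrays against -2.11 to -0.57 on dark arrays, with no overlap (2.05 ± 0.26, adjusted p = 0.00699). sup-12, a muscle splicing factor gene, was also without overlap (2.51 ± 0.58), though 1 light array, hour 6 of series 3, reached 4.92 and the next reached 1.89.

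In the controls the muscle list's median difference was -0.06 in series 4 and 0.64 in series 6, and 0.24 with both fitted together. pat-9 had 0.59 ± 0.63 and unc-15 had 0.33 ± 0.35 there. In DD the list's median was 0.54, made up of 0.16, 0.69 and 0.89 in series 2, 4 and 6; unc-15 had 1.04 ± 0.28 and cpn-3 0.51 ± 0.18. In WC, where the hours compared were warm and cold, the list's median was 0.26. The LD difference exceeded the WC difference for 11 of the 49 muscle genes, against 3.39% of all probe sets.

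**Figure D2:**
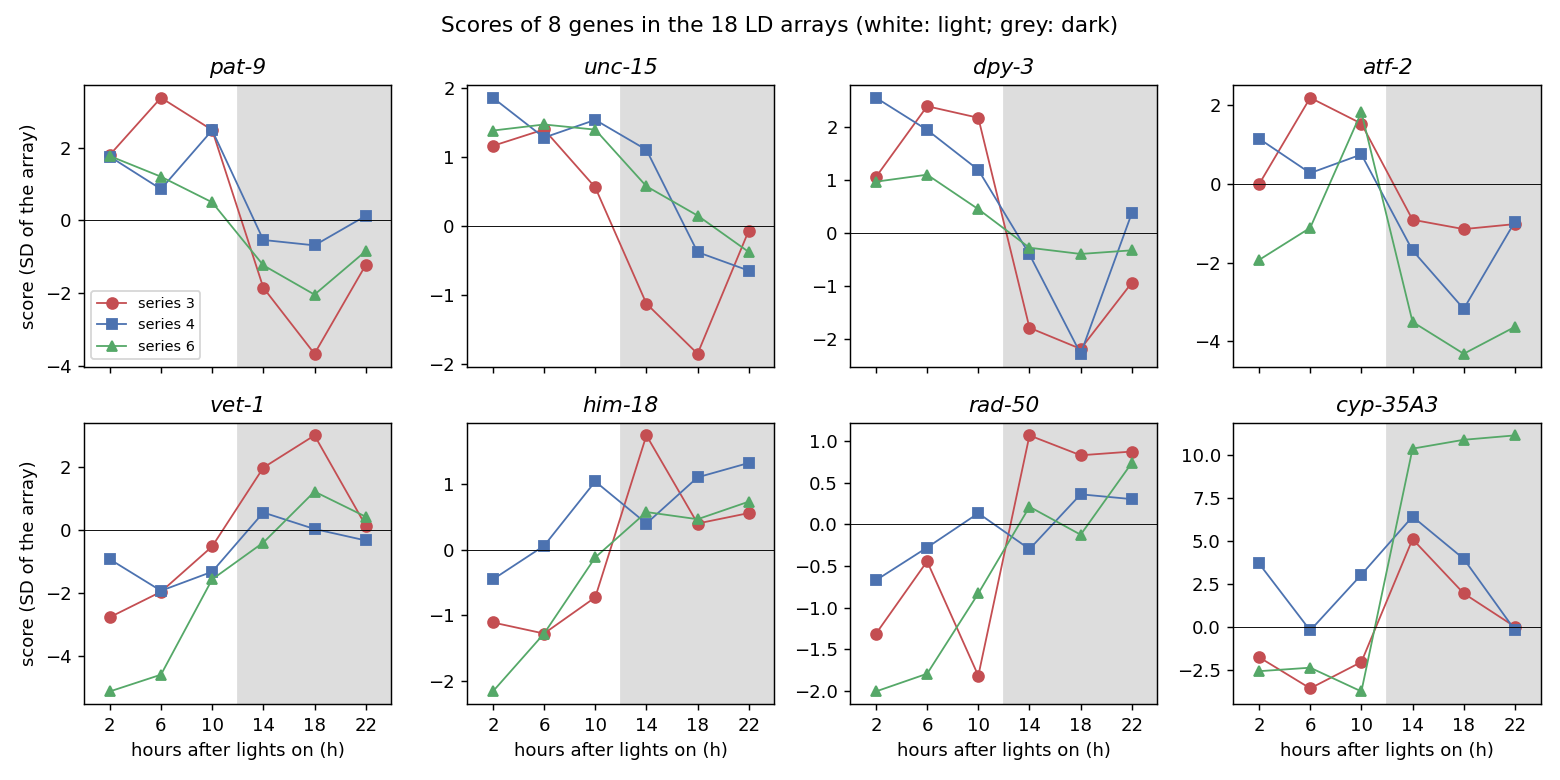
Score (vertical axis, in SD of the array) of 8 genes against hours after lights on in LD series 3 (circles), 4 (squares) and 6 (triangles), 1 point per array, with the dark phase shaded. The mean of the light phase lies on the same side of the mean of the dark phase in each series for all 8 genes, by 3.13 for pat-9 and -3.03 for vet-1 over the 3 series; cyp-35A3 reaches 11.2, in series 6.

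Some genes of the cuticle and its renewal were higher in light as well, and none of these 3 lists had lower calls. Among moulting and apical matrix genes 11 of 65 were higher and 0 lower (median 0.44), and among cuticle collagens 14 of 128 were higher and 0 lower (median 0.30; 0.23, 0.60 and 0.04 in series 3, 4 and 6). dpy-3, a collagen gene that shapes the body, had light scores of 0.45, 1.20 and 2.56 and dark scores of -2.27, -0.40 and 0.38. The phases did not overlap, and the difference was 2.45 ± 0.40 (adjusted p = 0.00805). The related collagen dpy-17 had 1.47 ± 0.29, and col-116 had 3.45 ± 0.73. noah-1 and noah-2, which encode zona pellucida domain proteins of the apical extracellular matrix, had 1.70 ± 0.32 and 1.93 ± 0.32. Another noah-1 probe set had 2.01 ± 0.33 with no overlap between phases, and 1.01 ± 0.59 in the controls. mlt-11, a protease inhibitor gene needed for moulting, had 2.81 ± 0.51, and the lipocalin gene lpr-3 had 2.43 ± 0.49. These genes also had positive differences in the controls: 1.59 ± 0.84 for dpy-3, 1.46 ± 0.66 for noah-2 and 1.93 ± 0.82 for mlt-11, against 0.26 ± 0.50, -0.45 ± 0.42 and -0.00 ± 0.52 in DD. The moulting list's median in the controls was 0.42 with both series fitted together, close to its 0.44 in LD. It was 0.10 in control series 4, -0.002 in control series 6 and 0.10 in DD. For the collagens the control medians were -0.73 in series 4 and 1.18 in series 6, a wider split than between the LD series. Of the hedgehog-related and patched-related genes, many of which act in the epidermis, 6 of 54 were higher and 0 lower. The shares higher among collagens and hedgehog-related genes were only slightly above the 8.87% of all genes. Without series 4 the collagens had 6 and the hedgehog-related genes 3 higher, and without hour 14 of series 4 the collagens had 24.

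Among enzymes that modify and conjugate foreign compounds, 2 families had a larger share of higher calls than the 8.87% of all genes. Glutathione S-transferases had 12 of 41 higher and 0 lower (median 0.72; 1.19, 0.11 and 0.73 by series), and short-chain dehydrogenases 10 of 46 higher and 0 lower (median 0.44; 0.52, 0.07 and 0.26 by series). UDP-glucuronosyltransferases had 6 of 54 higher (11.1%, only slightly above all genes) and 1 lower, with medians of 1.11, 0.16 and -0.07 by series. Their median was 0.33 over the 3 series and 0.0047 without series 3. ugt-18 had light scores of -0.40, 1.31 and 3.52 against -3.39, -1.30 and 0.29 in the dark, and similar differences of 3.45, 2.80 and 2.87 in the 3 series (3.04 ± 0.48, adjusted p = 0.00805). ugt-57 had 3.30 ± 0.71, gst-29 1.58 ± 0.34 and gst-36 0.92 ± 0.21. In the controls ugt-18 had 0.00 ± 0.54. Without hour 14 of series 4 the short-chain dehydrogenases had 16 higher and 2 lower. Cytochrome P450 genes were divided, with 8 of 57 higher and 6 lower.

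The largest negative difference of any called gene with a class name was in this family. cyp-35A3, a P450 gene induced by many foreign compounds, had scores of -3.75, -2.03 and 3.70 in light and -0.18, 5.12 and 11.2 in the dark (-6.59 ± 1.56, adjusted p = 0.0173). The phases overlapped, and the difference was -13.7 in series 6, against -4.82 in series 3 and -1.22 in series 4. cyp-35A4, a close relative whose probes may share targets with it, had -6.05 ± 1.67 and the same dependence, at -0.96, -3.44 and -13.7. Both had -3.58 in the controls, with SEs of 1.91 and 2.02. Without the 2 double-replicate arrays of series 4 (hours 6 and 18), 4 cytochrome P450 genes were higher and 3 lower. By contrast cyp-33C8 was higher in light by 1.58 ± 0.39 and cyp-43A1 by 1.14 ± 0.27.

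Lists of defence and digestion had more higher than lower calls, although most of their genes were not called. Of 174 immune effectors 33 were higher and 2 lower (median 0.35, with 0.55, -0.04 and 0.31 by series). Of 50 lysosomal and digestive enzymes 9 were higher and 0 lower (median 0.42, with 0.94, -0.01 and 0.19 by series). Of 33 transthyretin-related genes, a secreted family expanded in nematodes, 10 were higher and 0 lower (median 0.73). The shares higher were 19%, 18% and 30.3%, against 8.87% of all genes, of which 7.26% were lower. ilys-4, an invertebrate-type lysozyme gene, did not overlap, at 0.21 to 1.73 in light and -2.15 to 0.02 in the dark (1.73 ± 0.31, adjusted p = 0.00956). clec-72, a C-type lectin gene, had 3.15 ± 0.59, and 2.95 ± 0.69 in DD. spp-13, a saposin-like gene, had 4.42 ± 1.06, with 4.47, 2.92 and 5.89 in the 3 series, and 2.04 ± 1.64 in the controls. The gut esterase gene ges-1 had 1.03 ± 0.28 and the cathepsin B-like gene cpr-4 had 1.33 ± 0.32. The vitellogenins, the yolk proteins made in the intestine, did not move with these: 0 of 3 measured genes were called, with a median of 0.10. Without series 4 the lysosomal enzymes had 16 higher, and without hour 14 of series 4 the transthyretin-related genes had 16 higher.

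Some genes of energy metabolism were also higher in light, although most were not called. In glycolysis and the TCA cycle 8 of 46 genes (17.4%) were higher and 0 lower. Of vacuolar ATPase genes 5 of 19 (26.3%) and of fatty acid breakdown genes 9 of 59 (15.3%) were higher, with 0 lower in both. Desaturases and elongases had 1 of 19 higher (5.26%), below the 8.87% of all genes. pck-1, which encodes the gluconeogenic enzyme PEPCK, had 1.22 ± 0.23 (adjusted p = 0.0107) with 1.37, 1.48 and 0.79 in the 3 series. vha-5, a subunit gene of the proton pump, had 1.15, 1.12 and 1.10 (1.12 ± 0.21), and aldo-1, an aldolase, had 0.64 ± 0.14. acs-17, an acyl-CoA synthetase gene, had 1.43 ± 0.39 in LD and -1.48 ± 0.43 in WC. Respiratory chain genes had 5 of 50 higher and 1 lower, a share of higher calls near the 8.87% of all genes. Ribosomal protein genes had 2 of 67 higher (2.99%) and oxidative stress genes 2 of 29 (6.9%), both below that share, with 0 lower in both. Proteasome genes had 0 of 33 called in either direction. Fatty acid breakdown had 14 higher and 4 lower without hour 14 of series 4, and 4 higher and 0 lower without the 2 double-replicate arrays.

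Among neuronal genes, 9 of 100 neuropeptides and 9 of 54 genes of the synaptic transmission machinery were higher in light, with 0 lower in both. For the neuropeptides the share of higher calls was close to that of all genes (9% against 8.87%), while 77 of the 100 differences were positive, as were 44.5% over all genes, and their median was 0.38, against -0.06. flp-10, an FMRFamide-like peptide gene, had light scores of 0.27, 1.39 and 2.22 against -2.32, -0.68 and 0.69 in the dark, and nearly the same difference in each series at 2.08, 1.92 and 1.71 (1.90 ± 0.35, adjusted p = 0.01). It had 1.38 ± 0.39 in DD and 0.44 ± 0.52 in the controls. nlp-7 had 1.69 ± 0.39, and the insulin-like gene ins-3 had 1.49 ± 0.36. glt-1, a glutamate transporter gene, did not overlap (1.31 ± 0.31). egl-21, a neuropeptide-processing carboxypeptidase gene, had 1.00 ± 0.26, with 0.89 ± 0.27 in DD. Without hour 14 of series 4, 14 neuropeptides were higher. Ligand-gated channels had 1 of 42 higher, and receptor guanylyl cyclases 0 of 10.

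**Figure D3:**
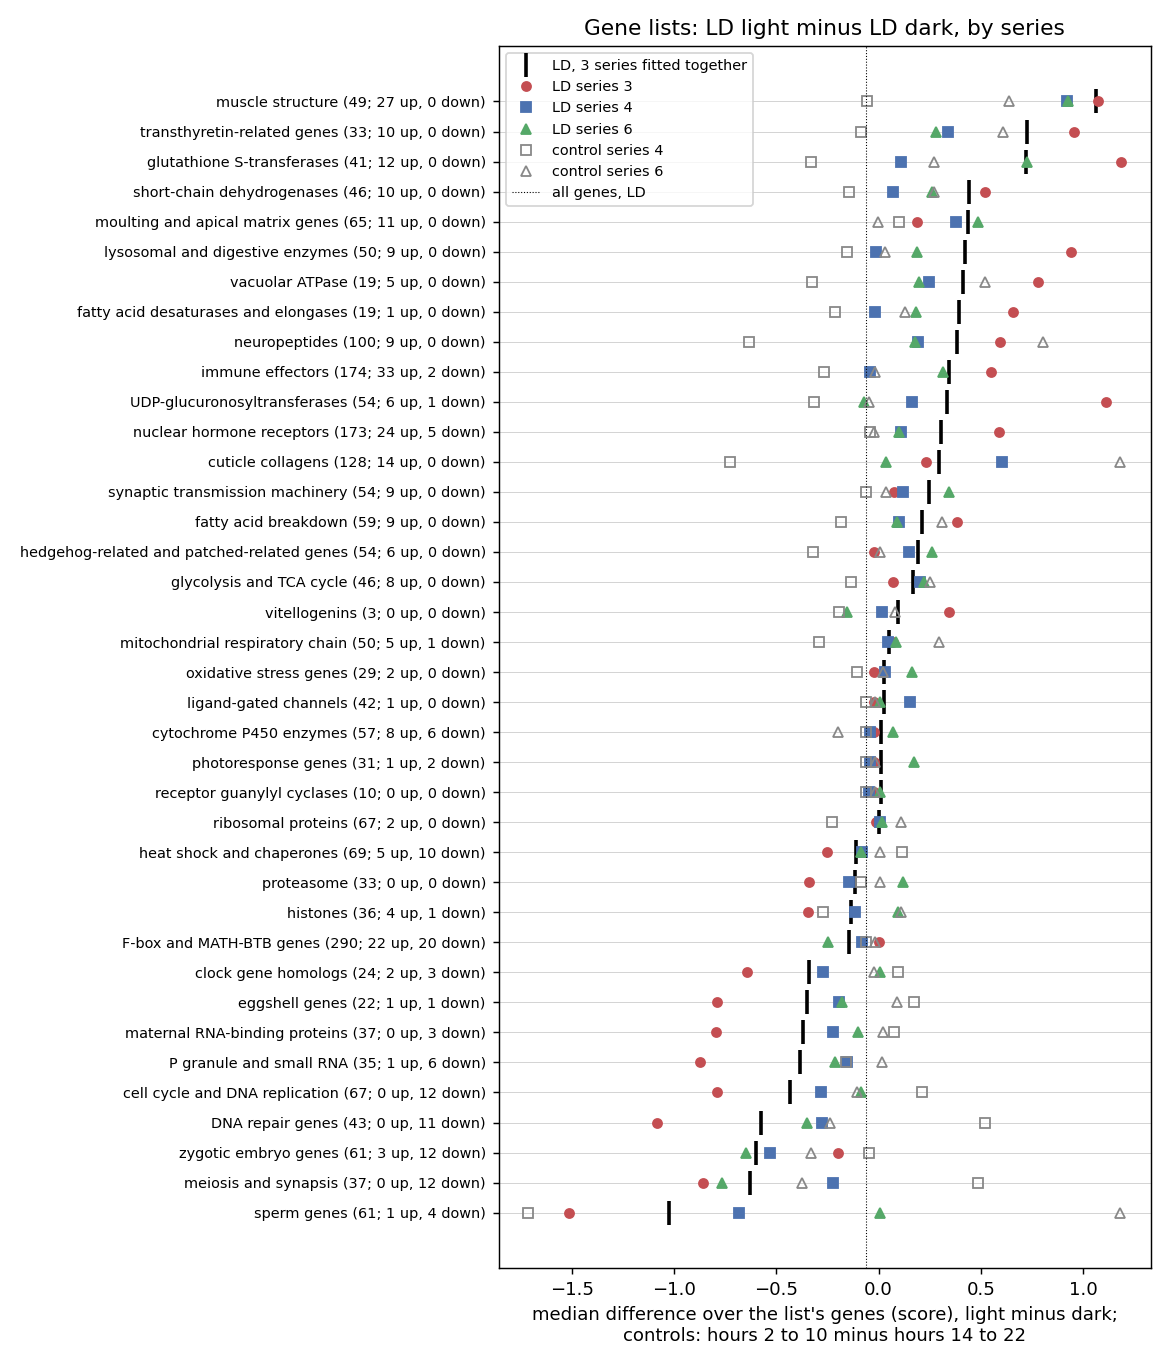
Median difference over each of 38 gene lists (rows; measured genes and calls in brackets), light minus dark, on the score scale, for LD series 3, 4 and 6 (filled), all LD series together (bars) and control series 4 and 6 (open; hours 2 to 10 minus 14 to 22). The muscle list, at 1.07, 0.92 and 0.93, has the highest median over the 3 LD series, and the control points of the collagens (-0.73 and 1.18) and the sperm genes (-1.71 and 1.18) lie farther apart than their LD points.

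In the lists of meiosis, DNA repair and the cell cycle, calls went to lower in light, although most of their genes were not called. Of these lists only meiosis was set as a germline marker, and 4 meiosis and 4 repair genes also stood in other lists. Of 37 genes of meiosis and synapsis 12 (32.4%) were lower and 0 higher, with all 37 differences negative (median -0.63). Of 43 DNA repair genes 11 (25.6%) were lower and 0 higher, again with all negative (median -0.57). Of 67 cell cycle and DNA replication genes 12 (17.9%) were lower and 0 higher (median -0.43). Over all genes 7.26% were lower and 8.87% higher, and 44.5% had a positive difference. The medians by series were -0.86, -0.22 and -0.77 for meiosis, -1.08, -0.28 and -0.35 for repair and -0.79, -0.28 and -0.09 for the cell cycle. Genes lower in all 3 series numbered 18 of 37, 24 of 43 and 40 of 67, against 26% of all genes. Without hour 14 of series 4, 19 meiosis, 22 repair and 25 cell cycle genes were lower, and without the 2 double-replicate arrays 5 cell cycle genes were. In the controls the medians by series had opposite signs, at 0.48 and -0.37 for meiosis and 0.52 and -0.24 for repair (series 4 and 6), so that the controls spread about as widely as the LD series.

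him-18, a nuclease scaffold gene of crossover processing, had scores of -2.16, -0.72 and 1.04 in light and 0.40, 0.57 and 1.74 in the dark. Its difference was -1.48 ± 0.30 (adjusted p = 0.0121), and it was 0.63 ± 1.00 in the controls. syp-4, of the synaptonemal complex, had -1.08 ± 0.24, and zhp-3, a crossover factor, -0.90 ± 0.23. rad-50, a subunit gene of the double-strand break repair complex, had -2.01 to 0.13 in light and -0.30 to 1.07 in the dark (-1.44 ± 0.28, adjusted p = 0.0109). The base excision repair genes apn-1 and nth-1 had -2.16 ± 0.49 and -1.69 ± 0.38, and nth-1 had 2.03 ± 1.10 in the controls. Genes that license replication origins fell by less: orc-1 by 0.80 ± 0.19 and cdc-6 by 0.56 ± 0.14. The phosphatase gene cdc-25.3 had -1.23 ± 0.29. chaf-1, a chromatin assembly gene, did not overlap between phases (-1.76 ± 0.30).

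Lists for other parts of the germline had fewer calls. P granule and small RNA genes had 1 of 35 higher and 6 lower, maternal RNA-binding proteins 0 of 37 higher and 3 lower, and eggshell genes 1 of 22 in each direction. The shares lower among the RNA-binding proteins and the eggshell genes (8.11% and 4.55%) were near or below the 7.26% of all genes. Without hour 14 of series 4, 12 RNA-binding protein and 12 eggshell genes were lower. The Argonaute gene rde-1 had -0.93 ± 0.25 and the Vasa-like helicase gene glh-3 -0.91 ± 0.26. Sperm genes had the lowest median of any list, -1.02, but only 4 of 61 were lower, near the background share, and 1 was higher. Their medians were -1.51, -0.69 and 0.01 in the LD series and -1.71 and 1.18 in control series 4 and 6. The small sperm-enriched peptide genes nspd-1, nspd-2 and nspd-4 had -4.93 ± 1.22, -4.88 ± 1.34 and -3.99 ± 0.96, and msd-4, of the family of major sperm protein domain genes, had -5.78 ± 1.45. The probe sets of these 4 genes are marked by the manufacturer as able to bind related transcripts, so they are not separate measurements.

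Some genes first transcribed in the embryo were lower in light, although embryos die on FUDR. Of 61 such genes 12 were lower, 3 higher and 46 not called. The shares were 19.7% lower and 4.92% higher, against 7.26% and 8.87% of all genes. The median was -0.60, with -0.20, -0.53 and -0.65 by series. Without series 4, 5 genes were lower and 5 higher. vet-1, an early embryonic transcript, had scores of -5.12, -1.92 and -0.52 in light and -0.40, 0.42 and 3.00 in the dark. It was among the 11 of 15989 probe sets (0.0688%) with every light array below every dark array (-3.03 ± 0.56, adjusted p = 0.0105). vet-2 had -1.78 ± 0.41, the T-box gene tbx-36 -1.26 ± 0.26 and the nuclear receptor gene nhr-2 -1.99 ± 0.43. pes-8, also of the embryonic list, went the other way at 2.28 ± 0.47. In DD vet-1 had -1.95 ± 0.76 and nhr-2 -1.58 ± 0.61, and in the controls they had 0.96 ± 1.79 and 1.09 ± 1.05. taf-7.1, a subunit gene of the general transcription factor TFIID, did not overlap (-3.59 ± 0.77), with hour 2 of series 6 at -6.88 and the next light array at -3.67.

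The muscle list was higher and the meiosis and repair lists were lower in light in each of the 3 series. At hour 14 of series 4, the dark array that resembled the light arrays, the muscle list was at its highest dark value, and the meiosis and repair lists were at their lowest. What part a change in the share of germline and body tissue had in any of these differences was not tested.

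**Figure D4:**
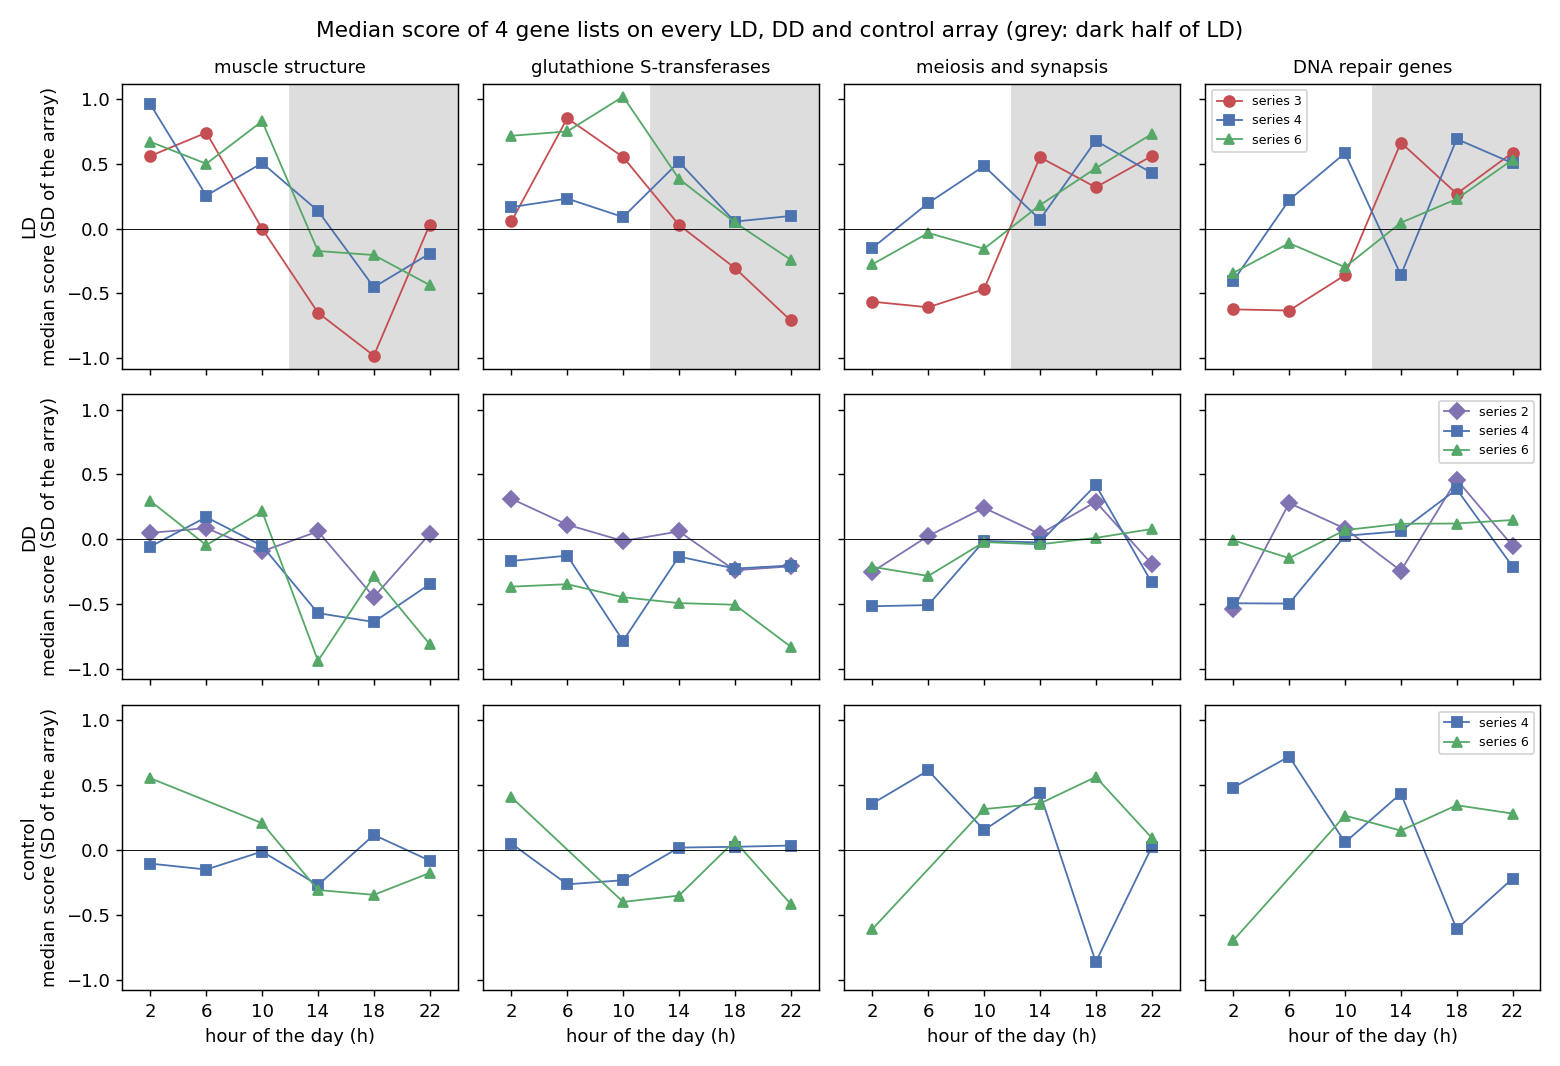
Median score (vertical axis, in SD of the array) of 4 gene lists on each array against hour of the day, in LD (top, dark phase shaded), DD (middle) and the non-entrained controls (bottom); 1 line per series, with no array at hour 6 in control series 6. In LD the muscle list has a median of 0.56 over light arrays and -0.20 over dark arrays, and the meiosis list -0.16 and 0.46; the control series do not share 1 pattern.

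Among 31 measured photoresponse genes 1 was higher and 2 were lower in light (3.23% and 6.45%, against 8.87% and 7.26% of all genes). The probe sets for lite-1 (1), gur-3 (2) and tax-4 (2) all stayed close to the array floor value over the LD arrays and were not tested. Their scores thus varied little, and whether they were undetected or steady cannot be told from scores. tax-2 had -0.18 ± 0.13 (adjusted p = 0.325). rgs-11 and rgs-9, regulators of G protein signalling, had -3.36 ± 0.75 and -1.51 ± 0.49, and the G protein alpha subunit gene gpa-9 had 2.69 ± 0.65. rgs-11 was lower in light in each series, at -2.66, -4.50 and -2.91, and had -2.22 ± 0.79 in DD and 0.42 ± 0.96 in the controls.

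Of 24 measured homologs of clock genes, 2 were higher and 3 lower in light (8.33% and 12.5%, against 8.87% and 7.26% of all genes), and 5 were lower without hour 14 of series 4. atf-2, a bZIP gene related to the insect gene vrille, had scores of -1.93, 0.75 and 2.19 in light and -4.32, -1.69 and -0.91 in the dark. The difference was 2.27, 2.67 and 3.41 in the 3 series and 2.78 ± 0.46 together (adjusted p = 0.00805), against -0.70 ± 1.22 in the controls, 0.41 ± 0.73 in DD and 0.61 ± 0.51 in WC. Within each series every light array lay above every dark array, and the overlap arose between series. hda-5, a histone deacetylase gene, was higher by 1.34 ± 0.37. aha-1, the relative of cycle, had -1.14 ± 0.36 (adjusted p = 0.0413), with -2.50 in series 3 and -0.12 in series 6, and its other probe set had -1.29 ± 0.50 and did not pass (adjusted p = 0.0848). The timeless-interacting gene tipn-1 had -2.02 ± 0.57 and the sirtuin gene sir-2.4 -1.29 ± 0.34. The relative of timeless, tim-1, had -0.99 ± 0.35 (limma, adjusted p = 0.065) and lin-42 had -1.56 ± 0.72 (adjusted p = 0.141). The casein kinase gene kin-20, related to doubletime, had 0.35 ± 0.34 (limma, adjusted p = 0.472). For both lin-42 and kin-20 another probe set stayed close to the array floor value and was not tested.

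Nuclear hormone receptors, a family much expanded in worms, had 24 of 173 higher and 5 lower (41 and 9 without hour 14 of series 4), and the LD difference exceeded the WC difference for 23 of them, against 3.39% of all probe sets. nhr-88 did not overlap, at -0.22 to 4.24 in light and -3.99 to -0.42 in the dark (3.34 ± 0.58, adjusted p = 0.00899). It had -1.11 ± 0.74 in the controls and -1.34 ± 0.63 in WC. The nhr-88 probe set is marked by the manufacturer as able to bind related transcripts. F-box and MATH-BTB genes, adaptors of protein degradation, had 22 of 290 higher and 20 lower (7 lower without series 4 and 34 without its hour 14), shares of 7.59% and 6.9% that were near those of all genes (8.87% and 7.26%). The histone list had 4 of 36 higher and 1 lower (11.1% and 2.78%). Heat shock and chaperone genes had 5 of 69 higher and 10 lower. Their share higher, 7.25%, was below that of all genes, and their share lower, 14.5%, was above it. The small heat shock genes hsp-12.1 and hsp-25 had 2.96 ± 0.62 and 1.39 ± 0.26, and the DnaJ gene dnj-22 -2.42 ± 0.50.

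Several of the largest single differences rested mostly on 1 series, which was series 6 for cyp-35A3 and cyp-35A4 and series 3 for the next 3 genes. hrg-3, which encodes a haem-binding protein that the mother's intestine secretes, had scores of 0.58, 4.07 and 9.59 in light and -8.61, 0.45 and 2.49 in the dark (6.18 ± 1.63, adjusted p = 0.0235). Its difference was 14.4 in series 3, 1.12 in series 4 and 3.05 in series 6. fbxa-74, an F-box gene, had 13.9, 1.90 and 2.20, and the kinase gene kgb-2 8.43, 1.21 and 2.60. lips-16, a lipase-related gene, was more even at 6.21, 4.22 and 1.27. K10D3.4 and H42K12.3 did not overlap and shared the lowest adjusted p (0.00699) with other genes, alp-1 among them. Their differences were 4.41 ± 0.60 and 3.92 ± 0.54, and the controls gave 2.32 ± 1.22 and 2.71 ± 1.12. Of genes lower in light, F56D5.5 had -6.0 ± 1.09, srfb-1 -3.89 ± 0.71 and T22B2.1 -5.02 ± 0.93. T22B2.1 did not overlap, its highest light score of -1.89 lying just below its lowest dark score of -1.87.

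Called genes were spread unevenly over the chromosomes. On the X chromosome 240 of 1757 genes (13.7%) were higher and 74 (4.21%) lower in light, with a median difference of 0.19. On chromosome I, 114 of 1920 (5.94%) were higher and 194 (10.1%) lower, with a median of -0.18. Chromosome V leaned to higher (10.4% against 5.3%) and chromosome III to lower (9.53% lower against 7.16% higher). These shares were not tested, since genes of a chromosome share the same arrays.

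**Figure D5:**
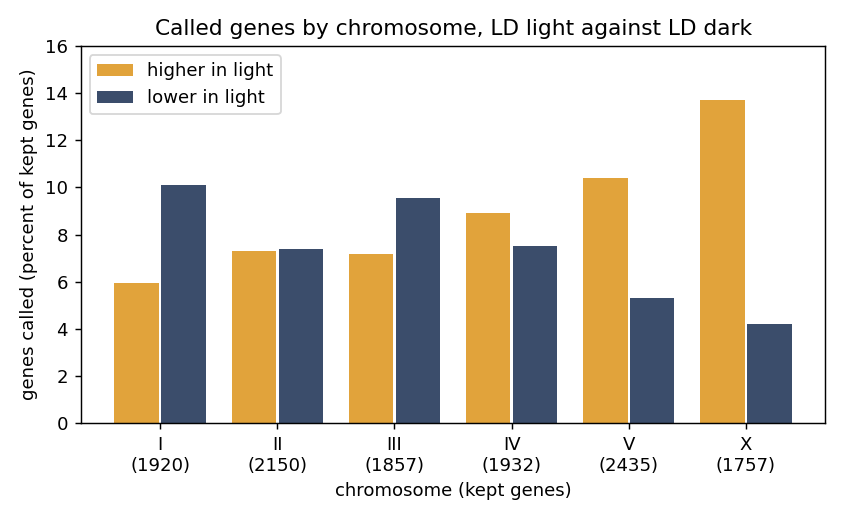
Percent of measured genes (vertical axis) called higher (left bar) and lower in light (right bar) on each chromosome, with the number of genes in brackets. The X chromosome has 13.7% higher and 4.21% lower, and chromosome I has 5.94% higher and 10.1% lower.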

How the data were processed

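Arrays were Affymetrix C. elegans Genome Arrays. The values deposited by the authors are scores: log2 expression from GCRMA in R 2.7.1, expressed relative to each probe set's mean over its time series and then standardized on each array to mean 0 and variance 1. Levels, fold changes and signal over background cannot be recovered from them. Judged from the probe set means, series 4 and 6 were centred over LD and DD together and series 3 over LD alone. The array holds 22625 probe sets; 77 of them are array controls and were dropped. The values pile up at 1 floor value on each array, taken as the median of the densest 5% of values. Probe sets whose root mean square distance from it over the 18 LD arrays was under 0.1 were left out (6559), and 15989 remained. Those left out may be undetected or steady, which the scores cannot tell apart. Probe sets were named from the platform annotation with symbols updated through RefSeq; 20766 had 1 gene symbol (17118 genes), 887 several and 895 none, and only the first kind was counted by gene.

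Light minus dark was fitted with limma 3.58.1 (R 4.3.3) with series as a block, and p-values were adjusted over all probe sets kept (Benjamini-Hochberg, threshold 0.05). The labels number the time series, which gives the block. Deviations of a series from the mean over series correlated between light and dark at -0.09, 0.25 and 0.07 (series 3, 4 and 6). LD differences were compared with those of controls, DD and WC in joint fits with a block for each condition and series. The labels do not say that arrays of a phase came from separate populations, so p-values measure the spread between these arrays; 3 series limit the precision. Fits were tested on simulated data with independent noise on each array. Such data hold no correlation between arrays of a phase and series, so they do not bear on that limit.

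Genes were taken by size of difference among called probe sets of 1 sign in all 3 series (10 with class names and 5 with sequence names in each direction, not all of which are described), and by lowest p among called members of 38 lists (up to 4 a list), plus 9 light and clock genes; genes named for non-overlap and the extra muscle markers were chosen after their values were seen. The comparison, members and lists were chosen with earlier results of these data known. Probe sets with suffix _x_at (139 called) or _s_at (886 called) can bind several transcripts. Figures were drawn with matplotlib 3.10.9 (Python 3.11.15).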

Additional observations from a re-analysis of the deposited data

Results flagged for a closer look

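In 12 of 174 sets of 9 arrays (87 genes, light and dark apart; 6.9%), 1 array lay far from the others of its phase by Dixon's criterion, which chance meets in about 1 set in 20. In series 3 these were pes-8 on the light array of hour 2 (3.66, next 2.15), lpr-3 on the light array of hour 6 (2.95, next 1.01), rgs-9 on the light array of hour 10 (0.89, next -1.03), lin-42 on the light array of hour 10 (-3.65, next -1.41), sup-12 on the light array of hour 6 (4.92, next 1.89) and ttn-1 on the dark array of hour 22 (5.52, next 1.83). In series 4 these were cdc-6 on the light array of hour 10 (-1.18, next -0.56), gst-36 on the light array of hour 10 (0.26, next 0.70), tax-2 on the dark array of hour 18 (0.99, next 0.34) and unc-22 on the light array of hour 10 (3.84, next 1.24). In series 6 these were taf-7.1 on the light array of hour 2 (-6.88, next -3.67) and myo-1 on the light array of hour 10 (-2.51, next -0.47).

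For 32 of the 87 genes the LD difference (light minus dark) was told apart from the WC difference (warm minus cold). Their adjusted p in the joint limma fit lay between 0.000658 and 0.0476. Over all probe sets the number was 746 of 17506 (4.26%). Most of the 87 genes were chosen for their LD differences, which by itself raises their share, so the 2 shares cannot be compared. The values here are LD difference minus WC difference. Among muscle and cuticle genes it was 1.09 ± 0.22 for cpn-3, 1.31 ± 0.38 for unc-15, 1.11 ± 0.26 for unc-87, 1.63 ± 0.40 for unc-54, 2.22 ± 0.55 for alp-1, 2.56 ± 0.68 for sup-12 and 3.12 ± 0.69 for col-116. Among enzymes, defence and stress genes it was 4.21 ± 1.01 for ugt-18, 3.17 ± 0.70 for ugt-57, 2.91 ± 0.69 for acs-17, 1.69 ± 0.43 for ilys-4, 2.53 ± 0.63 for clec-72 and 1.28 ± 0.27 for hsp-25. Among neuronal and signalling genes it was 1.71 ± 0.38 for nlp-7, 1.54 ± 0.37 for glt-1, 1.53 ± 0.35 for egl-21, 2.4 ± 0.64 for gpa-9 and 4.67 ± 1.03 for nhr-88. Among the others that were higher in LD light it was 9.87 ± 2.02 for hrg-3, 8.14 ± 1.39 for fbxa-74, 6.12 ± 1.15 for kgb-2, 5.15 ± 1.23 for lips-16, 2.08 ± 0.55 for pes-8 and 3.00 ± 0.83 for H42K12.3. Among genes lower in LD light it was -6.11 ± 1.64 for cyp-35A3, -7.97 ± 2.29 for msd-4, -5.57 ± 1.68 for nspd-1, -4.47 ± 1.29 for nspd-4, -3.81 ± 1.13 for srfb-1, -4.86 ± 1.34 for F56D5.5, -2.20 ± 0.64 for nth-1 and -3.82 ± 1.04 for rgs-11. hrg-3, fbxa-74, kgb-2 and nhr-88 had WC differences of -3.69, -2.13, -2.04 and -1.34, opposite in sign to LD. The 2 regimes differ in the cue, in the days of entrainment and in the series sampled, so their part cannot be told apart.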

How the results depend on the processing

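The phases of a series could be different animals, and the number of probe sets called depended on how that was treated. With series by phase as a random block 0 were higher and 0 lower in light (3955 at an unadjusted p under 0.05), and with phase means per series again 0 and 0 (1793); limma's lowest adjusted p was 0.052 and 0.439. Leaving out 1 series gave 0 to 1517 higher and 0 to 1237 lower, and series 3 and series 6 were each needed for the calls. Leaving out hour 14 of series 4, an alternative chosen after seeing the data, gave 1997 higher and 1937 lower, of which 1403 and 1112 were also called in the full data. Without the series block (no paired comparison) 1336 were higher and 1017 lower. The other alternatives (no floor filter, a floor distance of 0.2, without the 2 arrays that each stand for 2 biological replicates, median centring, quantile normalization, an hour factor, robust estimation, and re-centring of each series, chosen after seeing the data) gave 996 to 1470 higher and 767 to 1133 lower. Calls for LD against control differences numbered 0 to 300, against DD 0 to 303 and against WC 37 to 1144 when 1 LD series was left out; quantile normalization and the missing block left the first at 0. Of 87 genes described, 80 lost their call with the random block and with phase means, 78 without series 3 and 80 without series 6; none of the called ones changed sign. The leave-out fits also had fewer arrays, and the cause of these shifts was not tested. Signal over background is not known from these scores.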

Other observations

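The called probe sets were not spread evenly over the hours of their phase. Of the 1414 higher in light, 762 had their highest hourly mean at hour 2, 271 at hour 6 and 381 at hour 10. Of the 1119 lower in light, 131 peaked at hour 14, 550 at hour 18 and 438 at hour 22. The hour 14 array of series 4 correlated more highly with the light arrays of its series (0.52 to 0.66) than with its other dark arrays (0.41 to 0.42), and its part in the low number at hour 14 was not tested.

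F14B4.1, named here after its values were seen, was the 1 probe set whose LD and DD differences were told apart, with an LD difference more positive than the DD difference by 3.54 ± 0.58 (limma, adjusted p = 0.0208) and a DD difference of -1.12. Y50D4C.5 was the 1 probe set called for the difference within the non-entrained controls, in the limma fit made jointly with LD. Its value was -3.89 ± 0.55 (limma, adjusted p = 0.00555).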
